A study of Mus musculus with 78 samples.

Results

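Cytosolic ribosomal proteins build the ribosomes that translate nearly all messages of a cell: the Rps genes encode proteins of the small subunit, which reads the message, and the Rpl genes encode proteins of the large subunit, which joins amino acids. Many of their messages start with a run of pyrimidines, the terminal oligopyrimidine (TOP) motif, through which the mTOR pathway controls their translation. Ribosome production is high in dividing and growing cells, and developing brain holds many of these, while a ribosomal protein that lacks its partners can bind Mdm2 and raise p53. The 50 genes described here are those whose annotated mouse symbol has the form of a cytosolic ribosomal protein and which have a probe set annotated to 1 gene only. The arrays measured 18194 genes, and where a gene has several such probe sets, the one with the highest average across the 78 arrays stands for it. By name 26 belong to the large and 24 to the small subunit, and 49 are ribosomal proteins. The exception is Rps19bp1, a binding partner of RPS19 that fits the form of the symbol.

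RNA of mouse brain was measured on 78 Affymetrix Mouse430 2.0 arrays at embryonic day 14 (E14), at birth (P0) and at postnatal day 14 (P14), in 26 groups of 3 arrays each, as log2 values of the RMA method. Every value below is on that log2 scale, and a difference of 1 is a doubling. The mutants carry alleles of Lis1 (gene Pafah1b1), Ndel (Ndel1), Dcx and 14-3-3 epsilon (Ywhae), whose proteins act in the migration of neurons. At E14 the mutant groups were Lis1 ko/+, Lis1 ko/cko, Ndel ko/+, Ndel ko/cko, Dcx ko/Y and 14-3-3 ko/ko, with wild types of mixed background A (mix A) and mixed background B (mix B). At P0 the 14-3-3 ko/ko mice and an added Ndel ko/+ group were inbred (129s6 in the titles, as for the inbred wild types), the other 5 mutants of E14 were there again, and an inbred wild type joined the mixed ones. The P0 titles of Lis1 ko/+ and Lis1 ko/cko carry the word Mix, without A or B. At P14 the groups were Lis1 ko/+, Lis1 ko/cko, Ndel ko/+, Ndel ko/cko, a further Ndel ko/+ group labelled as mix background, and the 3 wild types. A ko/cko mouse has a conditional allele over a null one, and the labels name no Cre line. The replicates are called biological, but nothing ties them to litters, so p-values measure the spread between these samples. All 10 neuron markers on the list were above the filter on low values on every array.

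Some mutant libraries went against their labels in the targeted gene. Dcx was between 4.16 and 4.87 in the Dcx ko/Y libraries of both ages. Ywhae was 12.68, 12.92 and 9.97 in the libraries labelled E14 14-3-3 ko/ko, so that 2 of the 3 kept it, against 12.97 to 13.10 in both mixed wild types. Ndel1 was 9.79 to 9.87 in the libraries labelled E14 Ndel ko/cko, close to the 9.82 to 9.94 of the wild types. It was also not lower in the library groups labelled P0 Ndel ko/+ inbred and P14 Ndel ko/+ mix background. In P0 Ndel ko/cko Ndel1 was 9.51, 9.63 and 9.53, overlapping with 9.59 to 9.82 in mix B but below the 9.81 to 10.01 of mix A. Pafah1b1 was below all wild-type arrays of the age in the Lis1 groups of E14 and P14. At P0 it was 9.91 to 10.18 in Lis1 ko/+ and 10.01 to 10.12 in Lis1 ko/cko, overlapping with 9.81 to 10.11 in mix B but below the 10.44 to 10.57 of mix A. The library labelled E14 14-3-3 ko/ko replicate 2 had 9.87 for Pafah1b1, against 10.26 to 10.53 in the mixed wild types of E14. One library labelled P0 Dcx ko/Y, replicate 2, had an Xist value of 11.27 against 4.62 and 4.91 in replicates 1 and 3. Genes of the spinal cord, hindbrain and midbrain averaged 4.41 to 4.54 in 6 of the E14 arrays and 4.91 or more in the other E14 arrays. The same list averaged 4.02 to 4.30 on the P0 arrays and 4.26 to 4.60 on the P14 arrays, so the 6 arrays lie nearest to the later ages. The 6 arrays were 2 of mix A, 1 of Lis1 ko/+, 2 of Lis1 ko/cko and 1 of 14-3-3 ko/ko. Joint counts that use the libraries that kept Ywhae, the one with high Xist or the 6 arrays are also given without them.

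The members fell into a bright and a dim set. The probe sets of 35 members averaged between 11.72 and 13.52 over all arrays, close to the highest value of any probe set, 14.24. Another 12 averaged 6.46 to 9.83 and were tested too: Rpl7l1, Rpl12, Rpl14, Rpl27a, Rpl37, Rpl39, Rps4l, Rps6, Rps19bp1, Rps25, Rps27 and Rps27l. Rpl3l, Rpl39l and Rps16 averaged 3.45 to 3.88, did not reach the filter of 5.25 in any group and were not tested. Among the 50 probe sets 15 carry a suffix of Affymetrix (_x_at or _s_at) for probes that may detect other transcripts too, and 14 of these are in the bright set. Beside these, 110 probe sets list a symbol of this form among several genes and were used for counts only. Brighter probe sets of dim members may be among them, so the values of a dim member describe the probe set used and may not stand for all its messages. A level cannot be set against that of another gene on this scale, so only differences between samples are compared.

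The bright members dropped in steps of age on all arrays, mutants included. Their median value per array was 13.10 to 13.25 at E14 (24 arrays), 12.85 to 13.05 at P0 (30 arrays) and 12.24 to 12.60 at P14 (24 arrays), and no array of one age reached those of another. The arrays of an age share one distribution of values, and those of different ages do not, so the distance to the median tested gene of the same array is the safer measure between ages. It was 5.25 to 5.39 at E14, 5.14 to 5.48 at P0 and 4.56 to 4.80 at P14. On this measure the E14 and P0 arrays overlap, and every P14 array lies below them. In RNA of brain tissue a smaller share of cells rich in these messages and less of them per cell cannot be told apart.

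Between P0 and P14 the decline took in most members of both subunits. Joined over mix A and mix B, 35 of 47 tested members fell and 1 rose, where 22.1% of all tested genes fell and 34.3% rose (56.4% were called in either direction). The median member difference was -0.46, the median gene's was 0.13, and the relative change was thus -0.59. The small subunit had 17 of 23 tested members lower and the large subunit 18 of 24, with 1 of the large subunit higher. Of the bright members 30 of 35 fell, and all 35 were below the median gene. In mix A alone 39 members were lower and 4 higher (71.2% of all genes called), and in mix B alone 38 and 1 (69.3%). In the inbred wild type 41 members fell and 1 rose, where 33.8% of all tested genes fell and 38.0% rose (71.7% called), and the relative change was -0.51. Quantile normalization over all arrays left 33 lower and 1 higher in the mixed wild types, with a relative change of -0.45. In that setting 26.3% of all genes were lower and 30.3% higher. In the inbred wild type quantile normalization left 37 lower and 2 higher, where 34.5% of all genes were lower and 37.0% higher. Rpl41, Rps14 and Rps29, called lower as deposited, had differences of 0.04, 0.03 and 0.07 there that were not called.

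The declines were larger than the spread of replicates in a wide set of proteins. Rps19, a small-subunit protein whose human gene is mutated in Diamond-Blackfan anaemia, had 12.73, 12.82 and 12.86 in mix A at E14, 12.52, 12.61 and 12.53 at P0, and 11.76, 11.69 and 11.67 at P14. In mix B it had 12.72, 12.72 and 12.69 at E14, 12.48, 12.55 and 12.52 at P0, and 11.46, 11.31 and 11.59 at P14. Every P14 value lies below every P0 value, and the small step before birth is followed by a large one after it. Its fall from P0 to P14 was -0.96 ± 0.05 (SE; limma, adjusted p = 4.3e-12), and -1.04 ± 0.05 in the inbred wild type, where it had 11.60, 11.55 and 11.56 at P14 against 12.59, 12.59 and 12.65 at P0. Rpl27, a large-subunit protein also linked to Diamond-Blackfan anaemia in humans, had 12.49, 12.58 and 12.59 in mix A at E14, 12.28, 12.37 and 12.31 at P0, and 11.56, 11.56 and 11.57 at P14. Its fall was -0.88 ± 0.05 (limma, adjusted p = 1.9e-11), and its mix B values at P14, 11.36, 11.21 and 11.27, were lower still than those of mix A. Both genes were lower at P14 than at P0 in all 3 wild types.

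Other large falls came from different sites of the ribosome. Rpl35, which sits at the exit of the nascent chain, fell by 0.80 ± 0.05. Rpl8, close to the centre where peptide bonds form, fell by 0.76 ± 0.05. Rplp0, the base of the stalk that recruits elongation factors, fell by 0.71 ± 0.05, and its stalk partner Rplp2 fell by 0.35 ± 0.05. All 4 had groups without overlap in both mixed wild types, in a step where 56.4% of all tested genes were called. The share of all genes without overlap was not counted. Rpl11, which can bind Mdm2, fell by 0.70 ± 0.06, and Rpsa, a small-subunit protein also known as a laminin receptor, fell by 0.46 ± 0.05. Among the probe sets of dim members, those of Rps6 (the substrate of the S6 kinases), Rpl12 and Rps4l fell by 1.22 ± 0.18, 1.15 ± 0.16 and 0.97 ± 0.21. The Rps4l arrays of P0 and P14 overlapped: the mix A values were 8.51, 8.11 and 8.21 at P14, against 9.46, 8.30 and 9.24 at P0. Among the genes of human Diamond-Blackfan anaemia that are members, 9 of 11 fell and none rose, beside 35 of all 47 tested members and 22.1% of all genes.

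**Figure D1:**
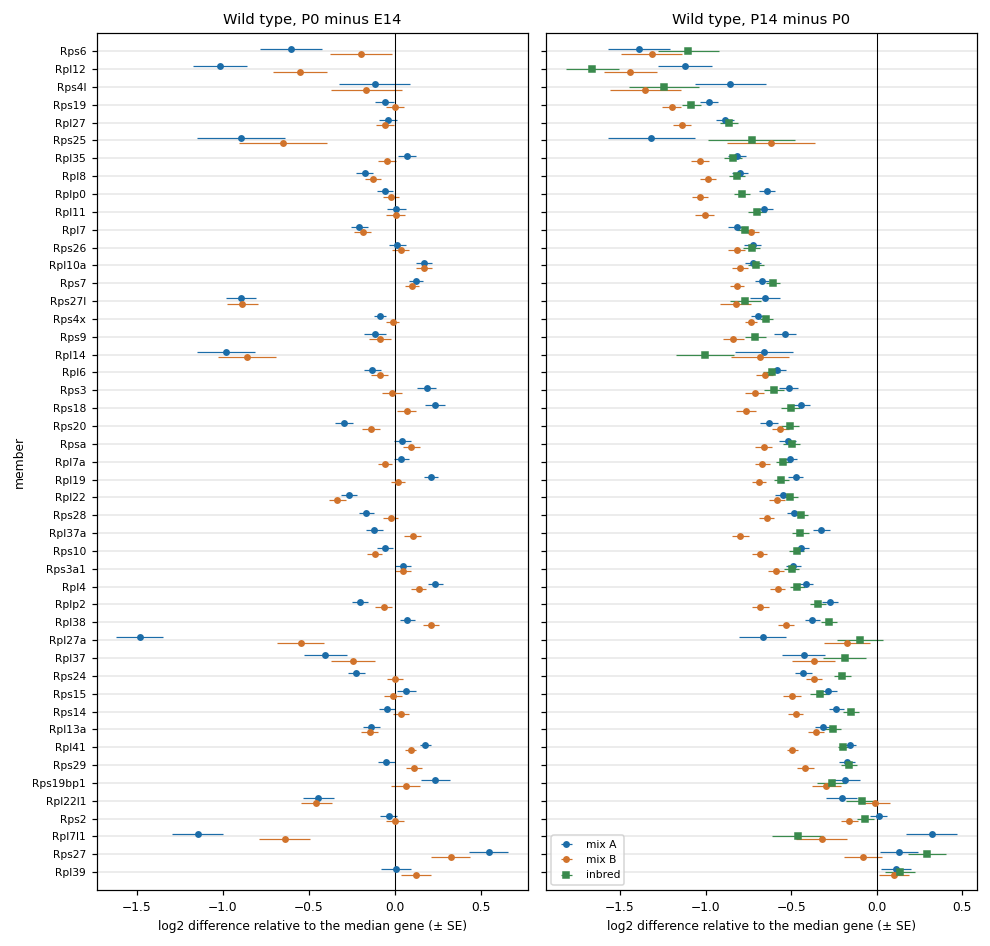
Change of the 47 tested members in wild types, P0 minus E14 on the left and P14 minus P0 on the right, as log2 difference relative to the median gene of that comparison, 1 row per member. Points are differences between means of 3 arrays and bars are standard errors of the fit; blue is mix A, orange mix B and green inbred (P0 and P14 only). On the right nearly all points lie left of 0, while on the left the bright members cluster around 0 and several dim ones lie far below.

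A group of 11 members did not pass the test in the mixed wild types from P0 to P14. Rps2, a protein of the small subunit near the entry of the message, had 13.04, 13.18 and 13.23 in mix A at P14, against 12.98, 13.08 and 12.97 at P0. In mix B it had 12.99, 12.92 and 13.11 at P14, and its P0 arrays lay within the range of the P14 ones. The P14 and P0 arrays overlapped, with a difference of 0.06 ± 0.05, and under quantile normalization Rps2 was called higher by 0.15. In the inbred wild type its difference was -0.02 ± 0.05. Rpl22l1 differed by 0.02 ± 0.09 and Rpl7l1 by 0.13 ± 0.15. The other 8 were Rpl27a, Rpl37, Rpl41, Rps14, Rps19bp1, Rps25, Rps27 and Rps29, with differences between -0.84 and 0.16. Rpl41, which encodes a very short peptide, was not called because the backgrounds differed: it had 13.45, 13.44 and 13.46 at P14 in mix A but 13.01, 12.97 and 12.96 in mix B.

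The only member to rise was Rpl39, a protein that lines the exit tunnel, from a dim probe set. Its difference was 0.24 ± 0.09 (limma, adjusted p = 0.029), with 7.09, 7.11 and 7.10 in mix A and 7.31, 7.13 and 7.12 in mix B at P14, against 6.83, 6.83 and 6.91 and then 6.94, 6.98 and 6.96 at P0. The groups did not overlap. The call was lost under quantile normalization and without any of P0 mix A replicate 1, P0 mix B replicates 1 and 3, and P14 mix B replicate 1, and in the inbred wild type the difference was 0.18 ± 0.09 (adjusted p = 0.069). The member that rose in the inbred wild type was Rps27, another dim probe set, with a difference of 0.34 ± 0.11.

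**Figure D2:**
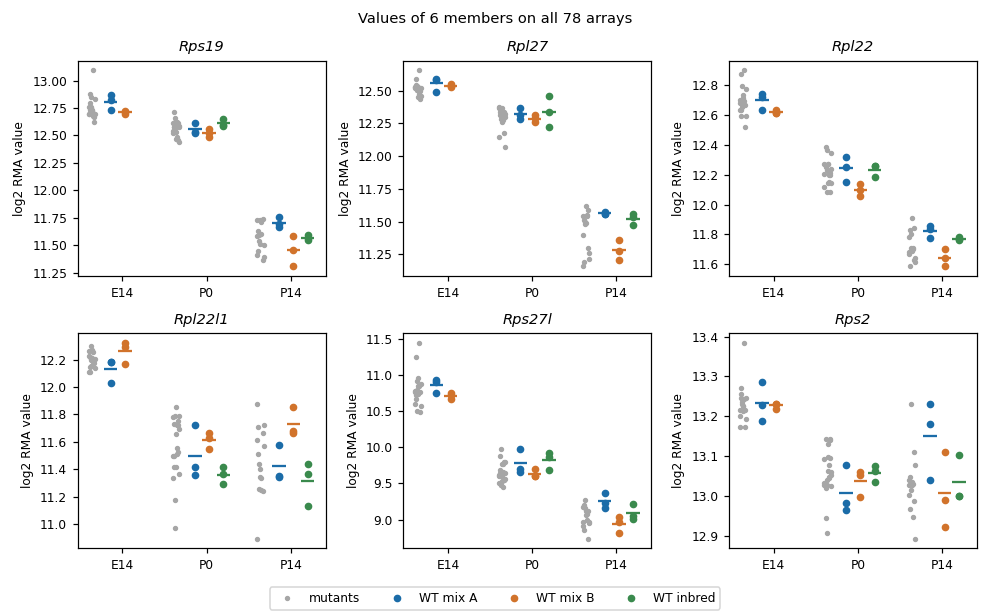
Log2 RMA values of 6 members on all 78 arrays, by age. Grey points are mutant arrays, coloured points wild-type arrays (blue mix A, orange mix B, green inbred) and short lines the means of 3 arrays. Rps19 and Rpl27 drop mainly between P0 and P14, Rpl22l1 mainly between E14 and P0, Rpl22 and Rps27l at both steps, and the P0 and P14 values of Rps2 overlap.

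All probe sets of the members were also tested singly. Of 95 tested probe sets annotated to 1 member, 74 fell and 3 rose from P0 to P14, where 24.4% of all tested probe sets fell and 28.8% rose. Of 104 tested probe sets that list such a symbol among several genes, 83 fell and 2 rose. In the inbred wild type 84 of the 95 fell and 3 rose (35.0% and 34.8% of all probe sets). From E14 to P0, 64 of the 95 fell and 2 rose (35.1% and 13.2% of all probe sets). From P0 to P14 Rps10 and Rps24 had probe sets called in both directions, and from E14 to P0 Rps20 had, so the direction for those genes depends on the probe set. From P0 to P14, for 12 of 21 members with more than 1 tested probe set, all of them were called one way.

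Several measures moved with age along with the members, and their part in the result was not tested. Of the cell-cycle list 18 of 18 tested genes were lower at P14 than at P0, and the mean of the list ranged from 5.36 to 5.77 at P14 against 6.79 to 7.50 at P0. Of the radial glia list 6 of 10 fell and 2 rose. All 9 tested myelin genes, 7 of 9 astrocyte genes and 9 of 9 microglia genes rose. The difference between actin probe sets at the 3′ end and at the 5′ end, a sign of RNA quality or of the labelling reaction, was 0.50 to 0.96 at P14 against 0.12 to 0.45 at P0. At E14 it was 0.11 to 0.24.

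From E14 to P0 the median member moved about as far as the median gene. In this step 29 of 47 tested members fell and none rose in the mixed wild types, where 35.0% of all tested genes fell and 14.8% rose (49.8% called). Their median difference was -0.23 and that of the median gene -0.19, so the relative change was -0.04, and -0.01 for bright members. In mix A alone 36 members were lower and 1 higher (68.5% of all genes called), and in mix B alone 34 were lower (61.7%). Most of these calls depended on the scaling: quantile normalization moved the median gene to 0.06, called 11 members lower and 3 higher, and turned the split of all genes to 19.8% lower and 26.0% higher. The 3 called higher in that setting were Rpl4, Rpl10a and Rps27, and the relative change was -0.12. Rpl4 and Rpl10a had differences of -0.0041 and -0.02 as deposited, against 0.19 and 0.15 after quantile normalization. Rpl27, Rps26 and Rps3a1, called lower as deposited, had 0.01, 0.03 and 0.03 there and were not called. Without the 6 E14 arrays, which leaves 1 array of mix A at E14, 23 members were lower and none higher. Cell-cycle genes were lower at P0 in 18 of 18 cases and radial glia genes in 8 of 10 with 1 higher. The list of spinal cord, hindbrain and midbrain genes averaged 4.02 to 4.30 at P0, below every E14 array. The 6 arrays left out are the E14 arrays nearest to that level, so age and region level change together in this step. The part of these lists in the result was not tested.

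Those members that did drop before birth far beyond the median gene were mostly dim ones. Rps27l, a paralog of Rps27 that p53 can induce, had 10.75, 10.91 and 10.93 in mix A at E14, 9.65, 9.70 and 9.98 at P0, and 9.23, 9.17 and 9.36 at P14. In mix B it had 10.75, 10.67 and 10.71 at E14, 9.60, 9.70 and 9.60 at P0, and 8.97, 8.81 and 9.04 at P14. The ages do not overlap, and the fall before birth was -1.08 ± 0.09 (limma, adjusted p = 1.1e-09). Rpl27a changed by -1.21 ± 0.13, Rpl14 by -1.11 ± 0.17, Rpl7l1 by -1.08 ± 0.15 and Rpl12 by -0.97 ± 0.16, and these calls also held under quantile normalization. Rps25 fell by 0.96 ± 0.25 and Rpl37 by 0.51 ± 0.13, and both calls were lost under quantile normalization; that of Rps25 was also lost without P0 mix B replicate 2. Among the bright members Rpl22l1 had the largest fall, 0.64 ± 0.09, followed by Rpl22 with 0.49 ± 0.05.

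Values of paralogs are given beside those of the genes they resemble. Rpl22, a large-subunit protein that binds RNA and represses its paralog in mouse, had 12.63, 12.74 and 12.72 in mix A at E14, 12.15, 12.25 and 12.32 at P0, and 11.84, 11.78 and 11.85 at P14. Rpl22l1 had 12.19, 12.18 and 12.03 in the same wild type at E14, 11.36, 11.42 and 11.72 at P0, and 11.34, 11.35 and 11.58 at P14. Rpl22 thus dropped at both steps, by 0.44 ± 0.05 at the second, while Rpl22l1 dropped at the first step and overlapped at the second. Rps4x, the X-linked small-subunit protein, fell by 0.24 ± 0.04 before and by 0.58 ± 0.04 after birth. Its paralog Rps4l differed by -0.33 ± 0.21 before birth (adjusted p = 0.24) and fell by 0.97 ± 0.21 after it. Rpl7 changed by -0.39 ± 0.05 and -0.65 ± 0.05 at the 2 steps, and Rpl7l1 fell at the first, and at the second in the inbred wild type, by 0.42 ± 0.15. Rps27 differed by 0.24 ± 0.11 before birth and by 0.16 ± 0.11 after it, and passed the test at neither step, while Rps27l fell by 0.61 ± 0.09 at the second. Differences between paralogs were not tested, since each gene has its own probes.

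Sequence around the start of transcription is shown for some members that fell after birth and for further members, with the motifs that RNA of this class is known for. RefSeq promoters of build GRCm38.p6 matched 44 of the 50 members. The window spans 20 bases before to 30 bases from the annotated start and was searched for CTTTC on the strand of the gene, the start of many TOP messages. A match was counted anywhere in the window, so it need not lie at the annotated start. CTTTC is in 14 of 44 members, 31.8%, and in 7.66% of 27025 genes. CCGGAAG, a site form of ETS factors such as GABP, was searched on both strands of the 300 bases of each promoter. It is in 21 of 44 members, 47.7%, and in 9.93% of all genes. AAGATGG, a site form of YY1, was in 18.2% of members and 7.28% of genes on both strands, and TATAAA in the 40 bases before the start on the strand of the gene was in 2.27% and 2.78%. The searched motifs share no bases by necessity, and a match is a description of letters. The windows below have CTTTC or CCGGAAG in capitals. The first 4 are the bright members with the largest fall from P0 to P14 among those that hold CTTTC there. Rpl35 at chr2:39005102-39005151 on the minus strand has 2 copies, and Rps26 at chr10:128626477-128626526 on the minus strand has 1. Rpl10a at chr17:28328545-28328594 and Rpsa at chr9:120127746-120127795 are on the plus strand.
Rpl35: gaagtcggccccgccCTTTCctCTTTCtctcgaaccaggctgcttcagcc
Rps26: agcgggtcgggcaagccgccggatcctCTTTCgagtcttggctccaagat
Rpl10a: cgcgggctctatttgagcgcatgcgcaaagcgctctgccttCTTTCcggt
Rpsa: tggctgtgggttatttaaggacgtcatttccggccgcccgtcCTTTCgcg

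The windows of 3 further members follow, all on the plus strand. Rpl22l1 at chr3:28805488-28805537 dropped before birth, and Rps27l at chr9:66946066-66946115 dropped both before and after it. Rps2 at chr17:24720043-24720092 was not called after birth. None of the 3 holds CTTTC in this window, and that of Rps27l holds CCGGAAG. The windows of the members above were picked for holding CTTTC, so the 2 sets do not compare courses. Rpl27a and Rps27, not called from P0 to P14 in the mixed wild types, hold CTTTC in the window. Rpl11 and Rplp0, which fell, do not.
Rpl22l1: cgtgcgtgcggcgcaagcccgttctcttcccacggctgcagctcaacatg
Rps27l: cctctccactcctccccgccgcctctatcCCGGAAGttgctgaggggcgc
Rps2: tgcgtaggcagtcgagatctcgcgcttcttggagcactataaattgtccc
Rps19 and Rpl27, with the largest falls of bright members, hold neither motif.

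Other genes of the translation apparatus were counted by lists, beside which stand the shares of all genes: 35.0% lower and 14.8% higher before birth, and 22.1% lower and 34.3% higher after it. Of 15 tested translation factors and other genes with TOP messages, 12 fell before birth and all 15 after it, with relative changes of -0.12 and -0.75. Examples from P0 to P14 are Btf3, a subunit of the nascent polypeptide complex, with -0.97 ± 0.07, and Hnrnpa1 with -1.05 ± 0.10. Fau, which encodes the small-subunit protein fused to a ubiquitin-like domain and lies outside the symbol rule, fell by 0.58 ± 0.07 after birth. Of 48 tested ribosome biogenesis genes 28 fell and 1 rose before birth, and 25 fell and 3 rose after it. Nop58, a core protein of nucleolar ribonucleoproteins, fell by 1.04 ± 0.11 after birth, and Sbds, which helps to release Eif6 from the large subunit, rose by 0.97 ± 0.07.

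Of 76 tested mitochondrial ribosomal proteins, 34 fell and 1 rose from E14 to P0. From P0 to P14, 6 fell and 27 rose, with a relative change of 0.10; the share that rose is close to the 34.3% of all genes. Mrps12, a small-subunit protein of mitochondria, rose by 0.97 ± 0.07. Of 28 other initiation and elongation factors 10 fell and 3 rose after birth. Eef1a2, the form of elongation factor 1A of mature neurons and muscle, rose by 1.02 ± 0.07, while Eif4a1, the helicase of initiation, fell by 1.00 ± 0.06. Among 19 regulators of ribosomal protein synthesis 8 fell and 2 rose. Myc, Mycl and Mycn, transcription factors that drive ribosome production, changed by -1.75 ± 0.10, -1.71 ± 0.10 and -1.28 ± 0.13, and Mtor and Rptor rose by 0.53 ± 0.08 and 0.45 ± 0.10. Of 7 tested genes of the p53 pathway 2 rose and 2 fell, among them Ccng1 with a rise of 1.28 ± 0.11 and Mdm4 with a fall of 0.86 ± 0.13.

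**Figure D3:**
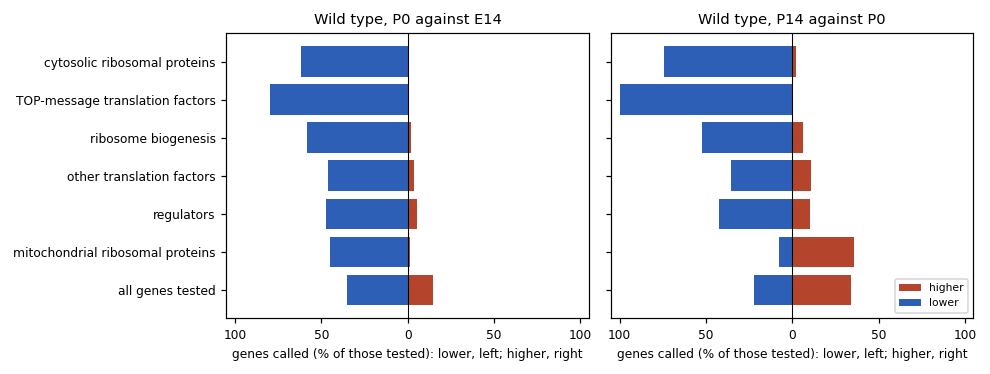
Share of tested genes called lower (blue, to the left) or higher (red, to the right) in wild types, in percent of the genes tested in each list, for P0 against E14 and P14 against P0. The bars of cytosolic ribosomal proteins and of genes with TOP messages point to lower at both steps, while the bars of mitochondrial ribosomal proteins after birth are like those of all genes on the higher side.

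The mixed wild types differed at P0 and P14 in a wide share of all genes, the members among them. At E14 limma called none of 47 members between mix A and mix B, with 3 at an unadjusted p under 0.05, where 0.0681% of all tested genes were called. At P0 it called 6 higher and 9 lower in mix A, where 18.1% of all genes were higher and 10.7% lower (28.7%). At P14 it called 27 higher and 5 lower, where 37.4% were higher and 15.2% lower (52.7%). The median member difference was 0.01 at P0 and 0.18 at P14, close to the 0.04 and 0.14 of the median gene. Apart from a wide shift of all genes, these counts hold members that keep a sign at both ages.

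Rps3, a small-subunit protein with a second role in DNA repair, had 12.46, 12.46 and 12.45 in mix A and 11.94, 11.81 and 12.12 in mix B at P14. At P0 it had 12.78, 12.91 and 12.83 in mix A and 12.53, 12.56 and 12.52 in mix B. The differences were 0.50 ± 0.07 and 0.30 ± 0.04, with no overlap at either age. Rps18 and Rpl19 were also higher in mix A at both ages, by 0.52 ± 0.07 and 0.46 ± 0.06 at P14. The calls of Rps3 at both ages, and of Rps18 at P0, were lost when all probe sets of the gene were averaged. Rps6 was called higher in mix A at both ages too, but lost the call in 4 of 6 runs at P0 and 5 of 6 at P14 that each left out an array. Rps20 and Rps24 were lower in mix A at both ages, by 0.28 ± 0.07 and 0.28 ± 0.05 at P14, and with averaged probe sets the calls of Rps20 at P0 and of Rps24 at both ages were lost.

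Rpl27a, a large-subunit protein measured by a dim probe set, had the largest difference at both ages. At P14 it had 6.77, 7.14 and 7.08 in mix A and 8.35, 8.42 and 8.52 in mix B, a difference of -1.43 ± 0.14 (limma, adjusted p = 3.4e-08). At P0 it had 7.30, 7.41 and 7.89 in mix A and 8.44, 8.43 and 8.55 in mix B. At E14 their arrays overlapped, with 9.27, 9.28 and 9.07 in mix A and 9.16, 9.23 and 9.23 in mix B. The probe set therefore showed the gap only after E14. In the other groups of P0, Dcx ko/Y had 8.67, 8.49 and 8.57, Ndel ko/+ 8.54, 8.49 and 8.35, and Ndel ko/cko 8.58, 8.49 and 8.59. Lis1 ko/+ had 7.72, 7.38 and 7.91, Lis1 ko/cko 7.19, 7.09 and 7.05, and the 3 inbred groups lay between 7.14 and 7.66. At P14 Ndel ko/+ and Ndel ko/cko lay between 8.21 and 8.75, and both Lis1 mutants, Ndel ko/+ mix background and the inbred wild type between 6.62 and 7.45. The groups near mix B were thus Dcx ko/Y, Ndel ko/+ and Ndel ko/cko, and those near mix A were the Lis1 mutants, Ndel ko/+ mix background and all inbred groups.

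**Figure D4:**
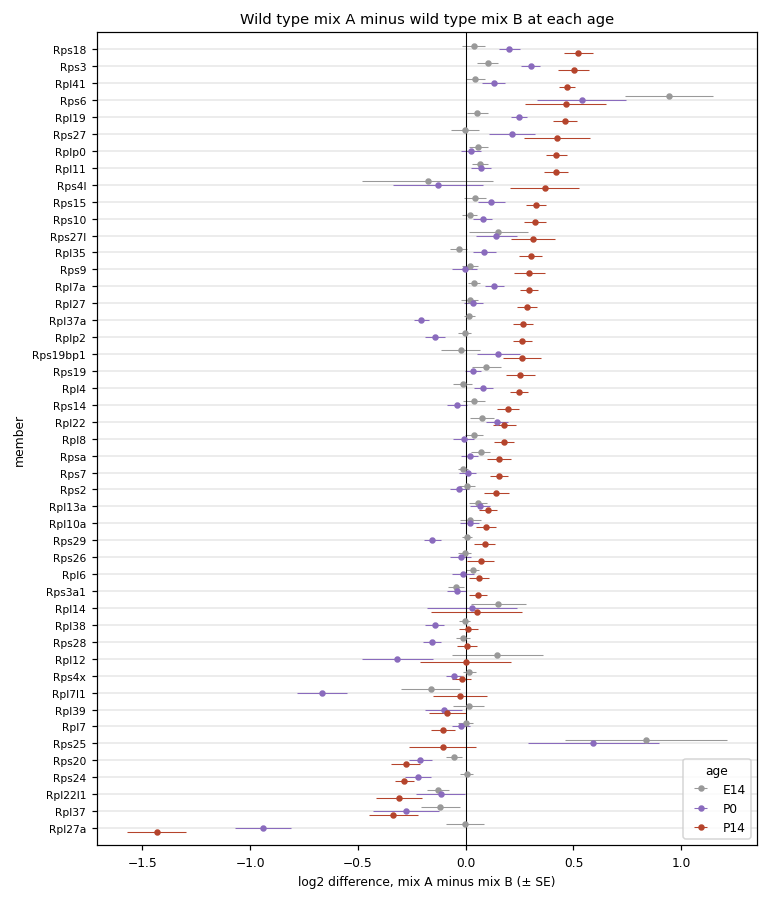
Log2 difference, wild type mix A minus wild type mix B, of the 47 tested members at E14 (grey), P0 (purple) and P14 (red), ordered by the P14 value. Points are differences of means of 3 arrays and bars standard errors of the fit. E14 points of bright members sit near 0, most P14 points lie right of it, and Rpl27a lies far to the left at P0 and P14.

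The difference between actin probe sets, a sign of RNA quality or of the labelling reaction, moved with this split at P0. The actin measure was 0.28 to 0.36 in mix B and 0.27 to 0.45 in the Ndel and Dcx mutants, against 0.15 to 0.21 in mix A and 0.12 to 0.21 in the Lis1 mutants and inbred groups. At P14 it was 0.50 to 0.96 in mix A and 0.66 to 0.71 in mix B. The labels name no batch of extraction or hybridization, so genetic background and handling cannot be told apart. From E14 to P0 the change differed between the mixed wild types in 4 members, where 10.4% of all genes were called. The change from P0 to P14 differed with 13 members called in the test of the difference, all with the higher value in mix A, where 11.6% of all genes were called and 8.05% were higher. Rplp0 and Rplp2 were among them, with differences of 0.39 ± 0.07 and 0.41 ± 0.07. Against both mixed wild types the inbred one had no member called at P0 (limma; 3 at an unadjusted p under 0.05), where 1.00% of all genes were called. At P14 it had 2 lower, where 0.244% of all genes were called and 0.203% were lower: Rps25 by 0.91 ± 0.16 and Rpl7l1 by 0.61 ± 0.12. Of 9 runs that each left out an array, Rps25 kept its call in 5 and Rpl7l1 in 1. Against a single mixed wild type, the inbred one had 2 members called at P0 (2.44% of all genes) and 4 at P14 (4.20%) with mix A, and 20 (45.4%) and 29 (48.6%) with mix B.

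Against both mixed wild types together, few ribosomal protein messages were called in the mutants. At E14 limma called no member in any of the 6 groups labelled as mutants. The libraries labelled Ndel ko/cko kept Ndel1 near the wild-type level, so their count is that of the label only. At an unadjusted p under 0.05 there were 1 in Lis1 ko/+, 4 in Lis1 ko/cko, 2 in Ndel ko/+, 1 in Ndel ko/cko, 1 in Dcx ko/Y and 0 in 14-3-3 ko/ko. The shares of all genes called were 0.0341% in Ndel ko/+, 0.0426% in Dcx ko/Y and 0 in the other 4. Without the 2 libraries labelled 14-3-3 ko/ko that kept Ywhae, the count was 0, but this leaves 1 array, whose spread is taken from the other groups. Without the 6 arrays that stood apart Lis1 ko/cko had 1 member called and the other 5 groups 0, with 1 array left of Lis1 ko/cko and 1 of mix A, so these counts rest on single arrays. Against mix B alone Dcx ko/Y had 1 member called (0.102% of all genes). Over all mutants and ages the median member difference lay between -0.10 and 0.06, and that of the median gene between -0.08 and 0.05. In simulated data for P0 Lis1 ko/cko the test recovered 1.3% of 1.2-fold, 63.2% of 1.5-fold and 94.2% of 2-fold changes, so that changes near 1.2-fold were mostly not detectable. The simulation gave both mixed wild types the same mean, while 28.7% of all genes were called between them at P0. Recovery in the data may therefore be lower than these shares, and for members with a small SE it may differ from them.

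At P0 limma called 2 members lower in Ndel ko/+, where 4.05% of all genes were called and 2.62% were lower. Rpl19, a large-subunit protein that contacts the small one, had 12.51, 12.52 and 12.47 in Ndel ko/+, against 12.90, 12.97 and 12.93 in mix A and 12.64, 12.70 and 12.72 in mix B. The mutant arrays lie below all 6 wild-type arrays, nearer to mix B, with a mean difference of -0.31 ± 0.04 (adjusted p = 0.0029). Rpl27 had 12.17, 12.07 and 12.15 in the mutant, against 12.28, 12.37 and 12.31 in mix A and 12.29, 12.31 and 12.26 in mix B, a difference of -0.17 ± 0.05 (adjusted p = 0.048). The Rpl27 call was kept in 1 of 9 runs that each left out an array. The actin measure was 0.39 to 0.43 in these Ndel ko/+ arrays, higher than in either mixed wild type, and its part in the result was not tested. In Ndel ko/cko Rpl19 had 12.69, 12.74 and 12.69, overlapping with mix B.

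No member was called at P0 in Lis1 ko/+, Lis1 ko/cko, Ndel ko/cko or Dcx ko/Y (limma; 1, 3, 2 and 1 at an unadjusted p under 0.05). The shares of all genes called were 0 in Lis1 ko/+, 0.331% in Lis1 ko/cko, 0.849% in Ndel ko/cko and 0.0255% in Dcx ko/Y. The count for Dcx ko/Y was also 0 without the library of high Xist. Against the inbred wild type none was called in the libraries labelled Ndel ko/+ inbred, where Ndel1 was not lower, or in 14-3-3 ko/ko inbred (7 and 5 at an unadjusted p under 0.05), where 0.255% and 0.0255% of all genes were called.

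At P14 the member called in Lis1 ko/cko was Rps4l, the dim paralog of Rps4x. It had 9.20, 9.41 and 9.02 in Lis1 ko/cko, against 8.51, 8.11 and 8.21 in mix A and 7.92, 8.17 and 7.65 in mix B. The mutant arrays lie above all wild-type arrays, with a mean difference of 1.11 ± 0.16 (limma, adjusted p = 0.0046; 6.32% of all genes called, 3.52% higher). In Lis1 ko/+ it had 8.82, 8.47 and 8.37, above mix B and overlapping with mix A. At P0 the Lis1 ko/cko values, 9.57, 9.02 and 9.20, overlapped with those of both wild types. Without P14 Lis1 ko/cko replicate 2 the adjusted p was 0.056. Whether its course from P0 to P14 differed from the wild types was tested and not called, with a difference of 0.92 ± 0.34 (adjusted p = 0.38). In that test Lis1 ko/cko had 1 member called (2.87% of all genes), Rps27. Lis1 ko/+, Ndel ko/+ and Ndel ko/cko had none (limma; 1, 0 and 2 at an unadjusted p under 0.05), where 0, 0.0613% and 0.0460% of all genes were called.

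The other 4 mutant groups of P14 had no member called. At an unadjusted p under 0.05 there were 1 in Lis1 ko/+, 1 in Ndel ko/+, 0 in Ndel ko/cko and 4 in the libraries labelled Ndel ko/+ mix background, where Ndel1 was not lower. The shares of all genes called were 0 in Lis1 ko/+ and in Ndel ko/+, 0.0895% in Ndel ko/cko and 0.114% in Ndel ko/+ mix background. With the inbred wild type in place of the mixed ones, the count for Ndel ko/+ mix background was again 0.

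Against one mixed wild type alone, the counts followed the split of groups seen in Rpl27a. At P14 Ndel ko/+ had 30 members called against mix A, where 52.3% of all genes were called, and 0 against mix B. Ndel ko/cko had 25 against mix A (52.8%) and 0 against mix B (0.179%). Lis1 ko/cko had 1 against mix A (13.9%) and 29 against mix B (59.7%), and Lis1 ko/+ had 0 against mix A (0.00813%) and 25 against mix B (52.6%). Ndel ko/+ mix background had 3 against mix A (0.968%) and 26 against mix B (52.6%). At P0 the counts against mix A were 24 in Ndel ko/+ (42.9%), 17 in Ndel ko/cko (33.8%) and 16 in Dcx ko/Y (30.0%), and against mix B they were 2 (9.47%), 0 (3.72%) and 0 (0.0340%). Lis1 ko/+ and Lis1 ko/cko had 0 and 1 against mix A (0 and 2.36% of all genes) and 11 and 16 against mix B, where 20.7% and 32.8% of all genes were called. These counts share their wild-type arrays with the comparison of mix A and mix B, which called 32 members at P14 and 15 at P0.

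**Figure D5:**
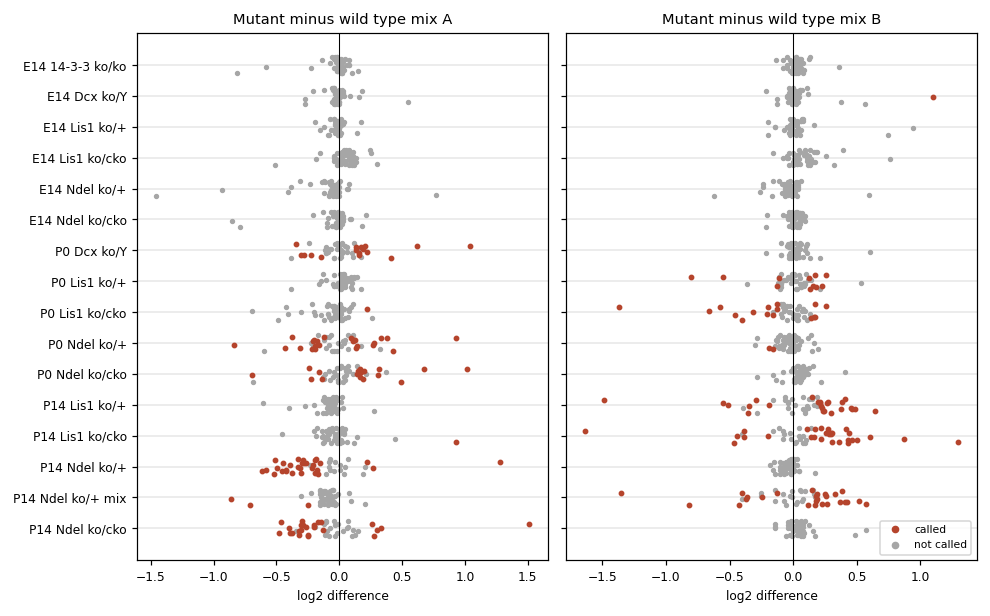
Log2 difference of each tested member, mutant minus wild type mix A on the left and mutant minus wild type mix B on the right, 1 row per mutant group and 1 point per member. Red points are called in that contrast alone (adjusted p under 0.05), grey points are not. The Ndel and Dcx mutants of P0 and P14 hold red points mainly on the left, and the Lis1 mutants and Ndel ko/+ mix background mainly on the right.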

How the data were processed

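The authors deposited log2 values of probe sets made by RMA, per the submitters' processing notes; its version was not given. Probe sets were paired with genes through the platform annotation: 34958 name 1 gene, 932 several and 9211 are not listed. A gene was represented by its 1-gene probe set with the highest mean, and tested if at least 1 group of the fit averaged 5.25 or more, which is the median of the whole table. Tests used limma 3.58.1 (R 4.3.3, with data.table, version 1.17.8) with 1 mean per group, empirical Bayes with a trend and Benjamini-Hochberg adjustment over all tested genes at 0.05, in fits of all wild types, of each age, or of all 78 arrays for interactions with a mutant. Against both mixed wild types, and for development, the larger of the 2 p-values was used if both differences had 1 sign, and 1 otherwise; the difference is the mean of both, with the larger SE. Values per array number 3 per group, which limits the precision.

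The members, the lists and the tests were chosen with earlier results of these data known. Named are, by rule, the called members with the largest change (8 in each direction for development, 4 elsewhere), the paralogs and their partners, stalk proteins, Rpsa and Rps6, members not tested or against the majority, and up to 3 called genes per list and direction. Rpl41 and Rpl11 were added after their values were seen. Alternatives were the filter, quantile normalization, averaged probe sets, 1 fit, a replicate block, single wild types, omitted arrays and, chosen after seeing the data, every probe set, bright members alone and the inbred wild type for Ndel ko/+ mix background. No 2 arrays were identical. Simulated arrays (5 draws, 200 altered genes each) were used to test the procedure: of 1.5-fold changes it recovered 52.6% for P14 against P0 and 69.5% for P14 mix A against mix B. Apart from the altered genes, all groups of a simulated fit had the same mean, unlike the groups of the data. RefSeq promoters (GRCm38.p6) were matched by symbol.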

Additional observations from a re-analysis of the deposited data

Results flagged for a closer look

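The change with age differed between mix A and mix B in the test of the difference itself (limma interaction; mix A minus mix B). From E14 to P0 it was called in 4 members, where 10.4% of all genes were called: Rpl19 with 0.19, Rpl27a with -0.94, Rps24 with -0.22 and Rpl37a with -0.22. Of these, Rpl27a was called in all 12 runs that each left out an array, and the other 3 in at most 3 of them. From P0 to P14 it was called in 13 members, where 11.6% of all genes were called, with the largest values in Rpl7l1 (0.64), Rpl37a (0.47), Rplp2 (0.41) and Rplp0 (0.39). Rpl7l1 kept its call in 2 of 12 such runs. The count was 7 without P14 mix B replicate 2 and 8 without P14 mix A replicate 1.

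The change from P0 to P14 differed between Lis1 ko/cko and both mixed wild types in 1 member, where 2.87% of all genes were called. This was Rps27, a small-subunit protein measured by a dim probe set, with a difference of 0.74. It had 7.76, 7.89 and 7.51 in Lis1 ko/cko, against 7.35, 7.23 and 7.24 in mix A and 6.76, 6.72 and 7.07 in mix B at P14. At P0 it had 6.89, 6.80 and 6.77 in Lis1 ko/cko, against 7.03, 6.75 and 7.26 in mix A and 6.74, 6.81 and 6.85 in mix B. The call was lost without P0 mix A replicate 3 and without P14 Lis1 ko/cko replicate 1 or replicate 2.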

How the results depend on the processing

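No member kept under the naming rule of a comparison changed direction in that comparison under the alternatives run. Other members did under quantile normalization: Rpl27, Rps26 and Rps3a1 (P0 against E14) and Rpl41, Rps14 and Rps29 (inbred, P14 against P0) lost a call of lower, with small positive differences, and Rpl4 and Rpl10a (P0 against E14) were called higher. Leaving out 1 array at a time moved the counts of members called to 27 to 31 (P0 against E14), 33 to 37 (P14 against P0; 0 to 1 higher), 38 to 41 (inbred; 1 to 2 higher), 12 to 14 and 26 to 30 (mix A against mix B at P0 and P14), 1 to 4 and 7 to 17 (their change to P0 and to P14), 1 to 3 (P0 Ndel ko/+), 0 to 2 (P14 Lis1 ko/cko and P14 inbred), and 0 to 1 (E14 Lis1 ko/cko, P14 Ndel ko/+ mix background and the change of Lis1 ko/cko). The cause of the following changes was not tested unless it is the setting itself. For P0 against E14, 29 members were called, and quantile normalization called 14 (3 higher, 11 lower) and the replicate block 18 (18 lower). The replicate numbers share only a number: deviations of same-numbered arrays had median correlations of -0.01, -0.02 and 0.01 at E14, P0 and P14. Other values with the replicate block were 0 higher for P14 against P0 and inbred, 1 for the mix A minus mix B change to P0 and 1 for P0 Ndel ko/+. Members higher at P0 than at E14 numbered 1 with averaged probe sets, 1 in mix A alone and 1 by any probe set. Members higher at P14 than at P0 numbered 0 with the stricter filter, 4 in mix A alone, 0 among bright members and 3 by any probe set. In the inbred wild type they numbered 2 without a filter, 0 with the stricter one, 2 under quantile normalization, 3 with averaged probe sets, 2 in 1 fit, 0 among bright members and 3 by any probe set. The mix A minus mix B change to P0 had 2 members without a filter and 1 without the 6 E14 arrays of low hindbrain level, and that to P14 had 8 with averaged probe sets. P0 Ndel ko/+ had 1 without a filter and 1 with averaged probe sets, and 24 against mix A alone. P14 inbred had 1 without a filter, with the stricter filter, under quantile normalization, with averaged probe sets and in 1 fit, 0 among bright members, and 4 and 29 against mix A and mix B alone. P0 inbred had 2 and 20. E14 mix A against mix B had 1 in 1 fit and 1 without the 6 E14 arrays, and E14 Lis1 ko/cko 1 without them, where 1 array of mix A and 1 of Lis1 ko/cko remain and are assumed to vary like the other groups. P0 Ndel ko/+ inbred had 1 in 1 fit. P14 Lis1 ko/cko had 2 in 1 fit, 0 among bright members and 29 against mix B alone, and its change had 0 among bright members. E14 Dcx ko/Y had 1 against mix B alone. Against mix A alone there were 1 in P0 Lis1 ko/cko, 17 in P0 Ndel ko/cko, 16 in P0 Dcx ko/Y, 3 in P14 Ndel ko/+ mix background, 30 in P14 Ndel ko/+ and 25 in P14 Ndel ko/cko. Against mix B alone there were 11 in P0 Lis1 ko/+, 16 in P0 Lis1 ko/cko, 25 in P14 Lis1 ko/+ and 26 in P14 Ndel ko/+ mix background. Of 387 values of named members over these alternatives 345 kept their side of the threshold and 42 lost the call. The runs that each left out 1 array are not in this total, and several named members lost calls in them. Bright members lie near the top of the scale, where differences may be understated, and dim ones nearer to background.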
